A study of Mus musculus with 2 samples.

Results

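The 30 genes described here are the core of the circadian clock and a set of transcripts that it drives in liver. Liver RNA was hybridised to whole-genome Affymetrix arrays, and values are linear signal units of the MAS5 software. The genes were taken as a list of symbols, and each is represented by the brightest of the probe sets that name it alone, by mean log2 signal over both arrays. The list was drawn up with the values of this comparison in view, so its values are a description and carry no test. Of 18193 genes named by the arrays, 12248 reached a floor of 17.8 signal units on at least 1 array, and that floor is the median signal of all probe sets. Among the 30 clock genes, 29 reached it on at least 1 array and 27 on both. Their 83 probe sets divided into 58 that reached the floor in both livers, 10 that reached it in 1 liver and 15 that stayed below it in both.

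The livers came from 1 Tmprss6-deficient male, labelled Tmprss6-/- and derived by gene targeting, and 1 control male. Both mice were 3 months old, of 129Sv/C57BL6 strain, and had been fasted overnight. The control's own genotype at Tmprss6, the cells in which the gene was inactivated and the hour at which each liver was taken are not stated in the labels. Each group holds 1 animal and 1 array, so the comparison has no replicate check, no test was made, and the number of arrays limits the precision.

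In the mouse clock, the transcription factors BMAL1 (encoded by Arntl) and CLOCK bind E-box letters and switch on the Per and Cry genes, whose proteins return to block them. The same pair drives Nr1d1 and Nr1d2, which encode the REV-ERB repressors, and Dbp, Tef and Hlf, which encode the PAR bZIP activators of many liver enzymes. REV-ERB repressors and ROR activators compete on Arntl, Clock, Npas2, Nfil3 and Cry1, so in liver these transcripts peak at about the opposite time of day to Dbp and the Per genes. The genes are grouped below by that known order, as the Arntl phase, the Nr1d1 phase, the Dbp and Per phase, and genes to which no phase was assigned. Placing further genes in the Dbp and Per phase, or in none, was a choice, and other placements were not tried.

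Tmprss6, the targeted gene, which encodes the liver protease matriptase-2, had a signal of 88.2 in Tmprss6-deficient liver and 1867 in control liver, 21.2-fold lower. Hepatocyte markers summed to 132378 in Tmprss6-deficient liver and 132596 in control liver over 8 of 10 genes named, all above the floor. Sums for Tmprss6-deficient and control liver were 3017 and 4163 for Kupffer cell markers (10 of 10 genes at or over the floor in at least 1 liver), 1725 and 1707 for endothelial markers (10 of 10), 1758 and 2213 for stellate markers (10 of 10) and 187 and 204 for neutrophil markers (6 of 8, with Camp and Mpo below the floor on both). They were 279 and 348 for lymphocyte markers (7 of 9, with Cd3e and Cd3g below the floor on both), 484 and 850 for erythroid markers (6 of 7, with Epb42 below it on both) and 59.2 and 128 for cholangiocyte markers (4 of 6, with Sox9 and Cftr below it on both). The Kupffer cell gap was spread over the list, with 8 of the 10 genes on the lower side and a median log2 ratio of -0.47. Without Csf1r the Kupffer sums were 2133 in Tmprss6-deficient liver and 2990 in control liver. The stellate gap lay in Acta2, without which the sums were 1669 in Tmprss6-deficient liver and 1699 in control liver. Of the 10 stellate genes, 7 were on the higher side, and the median log2 ratio was 0.14. Most of the erythroid gap in summed signal lay in Alas2, without which the sums were 252 in Tmprss6-deficient liver and 258 in control liver. Alas2 was not the only erythroid marker lower. Klf1 had 11.5, under the floor, in Tmprss6-deficient liver and 57.5 in control liver, at least 3.23-fold lower. Of the 6 measured genes, 3 were on the higher side, Slc4a1 among them only by a bound. For cholangiocyte markers 0 genes reached the floor in Tmprss6-deficient liver, and both sums include signal below it. In whole liver, fewer cells of a type and less RNA per cell cannot be told apart, and the part of these cell types in the values below was not tested.

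The phase groups were chosen with earlier results of these data known, so their values are a description and test no difference by phase. Clock transcripts change through the day in any mouse liver, Arntl and Dbp in opposite senses. With the hour of collection unstated, a difference in hour and a difference in genotype cannot be told apart for any ratio given here. All 4 measured genes of the Arntl phase were higher in Tmprss6-deficient liver, with a median log2 ratio of 1.21. The 11 genes of the Dbp and Per phase had a median of -0.34, and the pair of Nr1d genes one of -0.31. The 12 genes with no phase assigned had a median of 0.63. Over all 12248 measured genes the median was -0.0027. At a fold of 1.5, 10 of the 29 measured clock genes counted as higher and 4 as lower. Over all measured genes, 8.85% were that much higher and 9.13% that much lower. By 2-fold or more the shares of all genes were 2.39% higher and 2.78% lower, and the clock genes past that fold were Arntl, Cry1, Nfil3, Rgs16, Mfsd2a, Arrdc3 and Lonrf3 on the higher side and Dbp and Ntrk2 on the lower side.

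**Figure D1:**
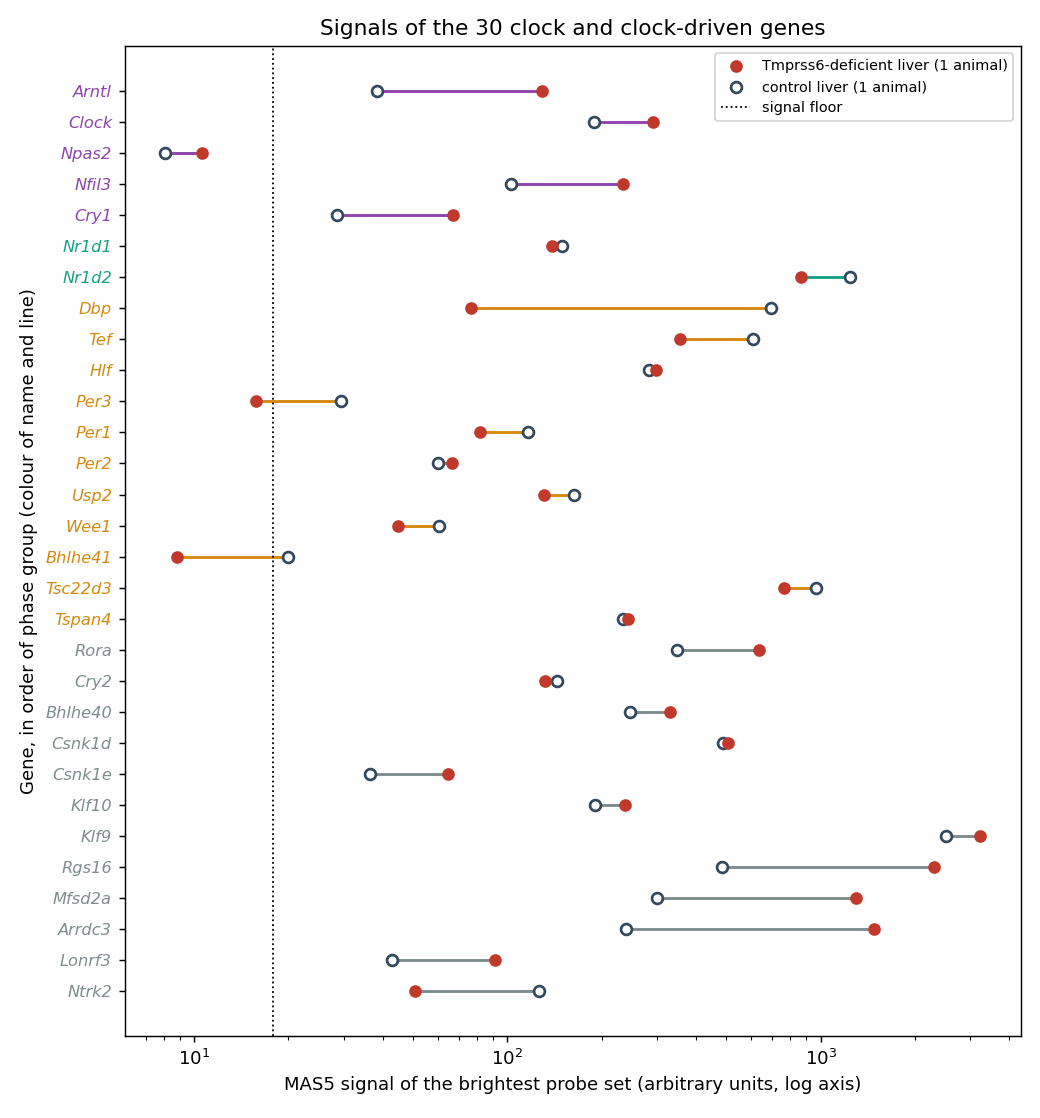
MAS5 signal (log axis, arbitrary units) of the brightest probe set of each of the 30 genes in the Tmprss6-deficient liver (filled) and the control liver (open), 1 animal each, with the floor of 17.8 as a dotted line. The pairs are widest for Dbp, which is lower in the Tmprss6-deficient liver, and for Arrdc3, Rgs16 and Mfsd2a, which are higher. Levels of different probe sets are not comparable with each other.

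Arntl, the activator that sets the rhythm, had a signal of 129 in Tmprss6-deficient liver and 38.3 in control liver, a log2 ratio of 1.75. Its other probe set read 31.3 in Tmprss6-deficient liver and 6.40, under the floor, in control liver, which makes it at least 1.76-fold higher. The error available for such a ratio is how far probe sets of 1 gene spread, taken over all genes, and it leaves out the variation between animals. On the log2 scale its SD was 0.44 for signals under 64, 0.35 from 64 to 256, 0.26 from 256 to 1024 and 0.16 above that. These ranges go by the dimmer set of each pair compared, and are read here at the signal of the brightest set. Arntl differed by more than that spread. Its partner Clock had 293 in Tmprss6-deficient liver and 189 in control liver, and its 4 probe sets were all higher, by 1.23-fold to 2.27-fold. Npas2, which encodes a stand-in for CLOCK, was below the floor on both arrays and has no ratio.

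The repressor gene Cry1 had a signal of 67.2 in Tmprss6-deficient liver and 28.5 in control liver, on a single probe set, a log2 ratio of 1.24. Nfil3, which encodes the bZIP repressor E4BP4 that competes with DBP for D-box sites, had 234 in Tmprss6-deficient liver and 103 in control liver, also on a single probe set, a log2 ratio of 1.18. Both lie beyond the spread found between probe sets of other genes in their signal range, and a single set gives no spread of its own. Across the Arntl phase, 7 of 7 probe sets that reached the floor in both livers were higher in Tmprss6-deficient liver. Of these sets 4 belong to Clock, and sets of 1 gene are not independent. Over all measured genes the median log2 ratio was -0.0027.

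The REV-ERB genes differed less. Nr1d1, the main REV-ERB gene of liver, had a signal of 138.8 in Tmprss6-deficient liver and 149 in control liver, a log2 ratio of -0.11 that is within the probe set spread of 0.35. Nr1d2 had 867 in Tmprss6-deficient liver and 1239.9 in control liver, with log2 ratios of -0.52 and -0.51 on its 2 probe sets. These 3 probe sets all lay on the lower side, and neither gene reached 1.5-fold. Rora, which encodes an opposing activator, had 636 in Tmprss6-deficient liver and 349 in control liver on its brightest set, 1.82-fold higher. Its other sets did not share that size, since 4 of the 5 others that reached the floor in both livers were higher by 1.07-fold to 1.26-fold and the remaining set was 1.24-fold lower. A dim Rora set that reached the floor in control liver alone was at least 2.05-fold lower, and another that reached it in Tmprss6-deficient liver alone was higher by at least 1.14-fold.

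Dbp, the PAR bZIP gene with the steepest daily swing in liver, stood far below the other clock outputs in its log2 ratio. It had a signal of 76.5 in Tmprss6-deficient liver and 696 in control liver, 9.10-fold lower. The other probe set gave 37.4 in Tmprss6-deficient liver and 329 in control liver, 8.79-fold lower. Dbp ranked 8 from the lowest ratio among the 12248 measured genes, a description only, since the list was drawn up with these values in view. Its relatives differed less. Tef had 357 in Tmprss6-deficient liver and 607 in control liver, 1.70-fold lower, with a second set 1.57-fold lower and a dim set 1.13-fold higher. Hlf had 299 in Tmprss6-deficient liver and 282 in control liver, a log2 ratio of 0.08, while its other set had a ratio of -0.50.

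The Per genes, which encode the partners of the CRY repressors, were not alike. Per1 had a signal of 81.7 in Tmprss6-deficient liver and 116 in control liver, a log2 ratio of -0.51 on its 1 probe set. Per2 had 66.3 in Tmprss6-deficient liver and 60.2 in control liver, a log2 ratio of 0.14 that is within the spread of 0.44, and its other sets gave 0.34 and -0.41. Per3 was dim throughout, with 0 of its 6 probe sets reaching the floor in both livers. Its brightest set had 15.7 in Tmprss6-deficient liver and 29.4 in control liver, at least 1.65-fold lower, and 2 further sets were above the floor only in control liver. Another Per3 set reached the floor in Tmprss6-deficient liver alone, at 24.2 against 14.6 in control liver, which is the other direction.

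Among the remaining genes of this phase, Usp2, a deubiquitinase gene, had a signal of 130.5 in Tmprss6-deficient liver and 163 in control liver, and both its probe sets were lower, with log2 ratios of -0.32 and -0.64. Wee1, which encodes a kinase that holds back entry into mitosis, had 44.6 in Tmprss6-deficient liver and 60.5 in control liver, a log2 ratio of -0.44 that is within the spread. Bhlhe41, which encodes the E-box repressor DEC2, was above the floor only in control liver, with 8.81 in Tmprss6-deficient liver and 19.9 in control liver, at least 1.12-fold lower. Tsc22d3, the glucocorticoid-induced gene that encodes GILZ, had 766 in Tmprss6-deficient liver and 968 in control liver, a log2 ratio of -0.34, with other sets at -0.10 and 0.07. Tspan4, a tetraspanin gene, had 243 in Tmprss6-deficient liver and 234 in control liver. Of the 18 probe sets of this phase that reached the floor in both livers, 12 were lower and 6 were higher, and 0 of the 11 genes were higher by 1.5-fold or more. The 3 genes lower by that fold were Dbp, Tef and Per3.

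**Figure D2:**
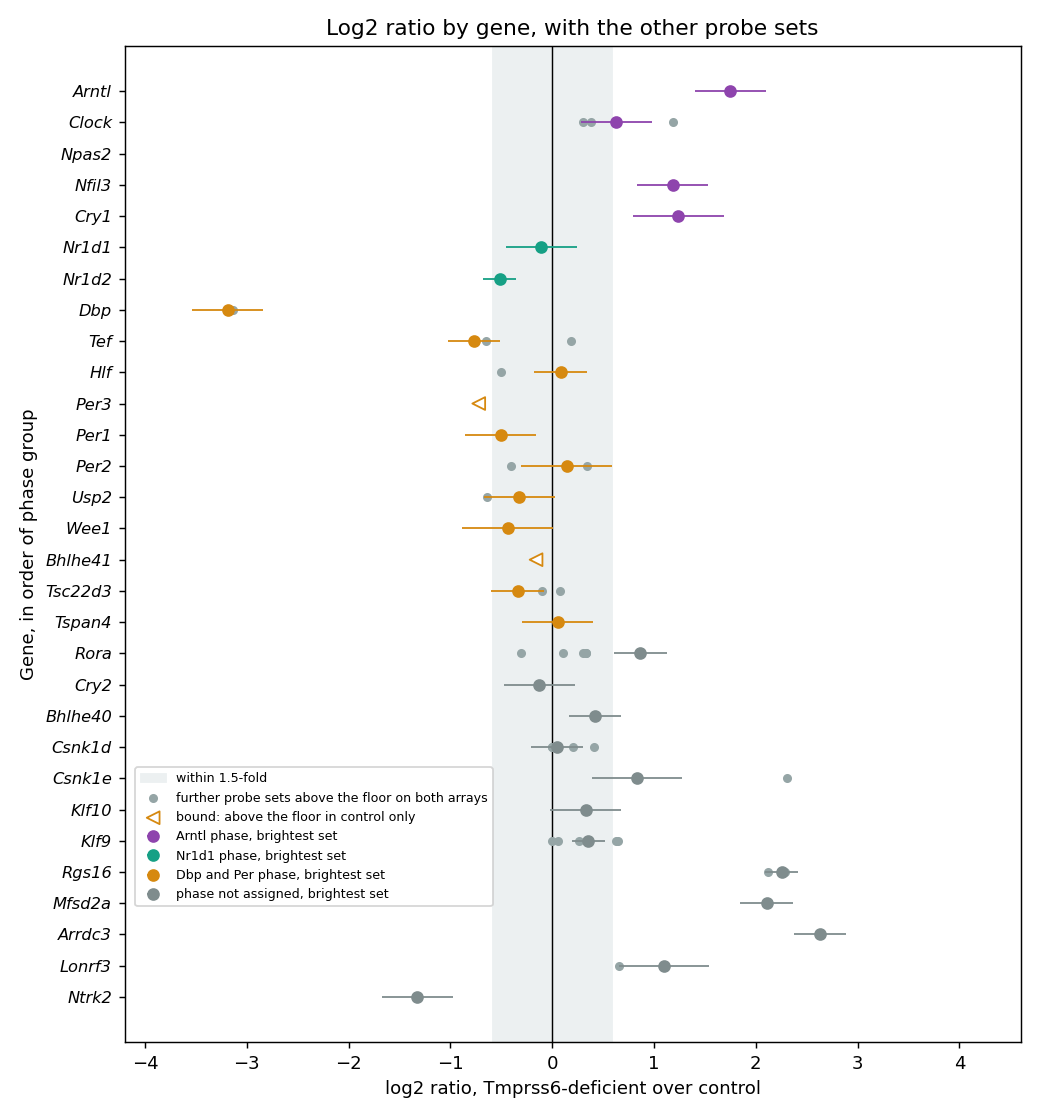
Log2 ratio of Tmprss6-deficient over control liver for each gene, from its brightest probe set, coloured by phase, with the further probe sets that reached the floor in both livers in grey. Bars are the SD between probe sets of a gene, taken over all genes in that signal range, not animal variation. Open triangles are bounds, the grey band is 1.5-fold, and Npas2 has no ratio. The Arntl phase lies right of 0, Dbp lies at -3.19, and the other genes of the Dbp and Per phase lie between -0.77 and 0.14.

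Letters that clock factors bind were looked for in the 250 bases before the start of each gene, in RefSeq promoters of build GRCm38.p6, on both strands. The table held 38 promoters for 25 of the 30 genes, and Per2, Wee1, Bhlhe40, Csnk1d and Klf10 were not matched. The E-box CACGTG, the site of BMAL1 and CLOCK, was present for 6 of the 25 (24.0%), against 6.86% of 27025 genes in the table. A gene counts if any of its promoters holds the letters, and all 27025 genes had 32851 promoters. These clock genes thus had more promoters searched per gene, and the E-box share over all promoters was 6.02%. The D-box (TTACGTAA, TTATGTAA or TTATATAA), the site of DBP and E4BP4, was present for 2 of 25 against 1.69% of all genes, and TTATATAA also holds the letters of a TATA box. The ROR element (TAGGTCA or TGGGTCA) was present for 1 of 25 against 6.15%, the cAMP element TGACGTCA for 1 of 25, in Hlf, against 1.77%, and the glucocorticoid element ACANNNTGT for 0 of 25 against 6.76%. A match of letters is not evidence of a bound site, and sites outside the 250 bases were not searched. The stretches with clock motifs are printed 5′ to 3′ along the gene with the motif in capitals, to show that the same E-box letters stand before genes on both sides of the comparison.
Cry1 (chr10:85185079-85185144, minus strand): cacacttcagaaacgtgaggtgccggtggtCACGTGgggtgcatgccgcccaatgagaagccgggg
Per1 (chr11:69098753-69098818, plus strand): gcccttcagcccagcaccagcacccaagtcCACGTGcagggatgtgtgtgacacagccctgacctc
Tef (chr15:81802516-81802581, plus strand): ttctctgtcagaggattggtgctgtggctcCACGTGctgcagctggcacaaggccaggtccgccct
Bhlhe41 (chr6:145865538-145865603, minus strand): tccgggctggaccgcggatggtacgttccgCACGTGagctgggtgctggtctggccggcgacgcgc
Tspan4 (chr7:141476299-141476364, plus strand): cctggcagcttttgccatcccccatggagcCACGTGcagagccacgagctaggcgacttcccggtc
Lonrf3 (chrX:36328334-36328408, plus strand): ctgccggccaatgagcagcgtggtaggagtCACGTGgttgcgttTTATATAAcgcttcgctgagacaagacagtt
Nfil3 (chr13:52981040-52981081, minus strand): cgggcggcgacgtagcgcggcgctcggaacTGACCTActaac
Per3 (chr4:151044786-151044900, minus strand): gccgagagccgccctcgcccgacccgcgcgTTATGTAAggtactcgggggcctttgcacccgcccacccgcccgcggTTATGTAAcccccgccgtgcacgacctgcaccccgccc
The E-box begins 60 bases before the start in Cry1, 166 in Per1, 127 in Tef, 153 in Bhlhe41, 51 in Tspan4 and 45 in Lonrf3. A second Tef start has its own E-box, 138 bases upstream. In Lonrf3 the letters TTATATAA, which a D-box and a TATA box can share, follow at 31 bases. Per3 holds TTATGTAA at 205 and again at 158 bases. The capitals of Nfil3 are the ROR element on the opposite strand, 12 bases before the start. The genes with an E-box did not share a direction, since the log2 ratio was 1.24 for Cry1 and 1.10 for Lonrf3, against -0.77 for Tef, -0.51 for Per1 and 0.05 for Tspan4, and Bhlhe41 has only a bound on the lower side.

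Among repressors and kinases with no phase assigned, Cry2, the paralog of Cry1, had a signal of 131 in Tmprss6-deficient liver and 144 in control liver, a log2 ratio of -0.13, 1.37 below that of Cry1. Bhlhe40, which encodes DEC1, had 330.1 in Tmprss6-deficient liver and 247 in control liver, 1.34-fold higher on 1 probe set. Csnk1d, a casein kinase 1 gene whose product marks PER proteins for turnover, had 505 in Tmprss6-deficient liver and 489 in control liver, and its 5 probe sets ranged from -0.0040 to 0.41 on the log2 ratio. The related kinase gene Csnk1e had 64.7 in Tmprss6-deficient liver and 36.4 in control liver, 1.78-fold higher. A second Csnk1e set had 99.0 in Tmprss6-deficient liver and 20.0 in control liver, 4.95-fold higher, so the sets agree in direction and not in size. Csnk1e lies on chromosome 15, as does Tmprss6, with 31 protein-coding genes between them. Of these, 22 were measured, with a median log2 ratio of 0.08 and a range from -2.09 to 0.81. By at least 1.5-fold, 3 of the 22 were higher and 4 were lower, against 8.85% and 9.13% of all measured genes. Tef and Klf10 lie on the same chromosome, 75 and 244 protein-coding genes from Tmprss6. Whether the Csnk1e difference comes with the lost gene, linked DNA, the hour or variation between animals cannot be told apart in these 2 animals.

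Of the 30 genes, the largest differences on the higher side were in Arrdc3, Rgs16 and Mfsd2a, which follow both the clock and food intake in mouse liver. Arrdc3, an alpha-arrestin gene, had a signal of 1480.5 in Tmprss6-deficient liver and 239 in control liver, 6.19-fold higher. Rgs16, which encodes a GTPase-activating regulator of G protein signalling, had 2309 in Tmprss6-deficient liver and 484 in control liver, 4.77-fold higher, and its other 2 sets were 4.86-fold and 4.36-fold higher. Mfsd2a, a lysophospholipid transporter gene that fasting induces in mouse liver, had 1298 in Tmprss6-deficient liver and 301 in control liver, 4.31-fold higher. Arrdc3, Rgs16 and Mfsd2a ranked 10, 15 and 25 from the highest of the 12248 measured genes, where 0.237% of genes were 4-fold higher or more. The genes were listed with these values in view, so the ranks describe them and do not measure how unusual they are. Lonrf3, a RING finger gene, had 91.5 in Tmprss6-deficient liver and 42.8 in control liver, 2.14-fold higher, and 1.57-fold higher on its other set.

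The Krüppel-like factor genes were closer between the livers. Klf10 had a signal of 238 in Tmprss6-deficient liver and 190 in control liver, a log2 ratio of 0.33 within the spread of 0.35. Klf9, which glucocorticoids induce, had 3224 in Tmprss6-deficient liver and 2520 in control liver, 1.28-fold higher, and 5 of its 6 sets that reached the floor in both livers were higher, by up to 1.57-fold, while the second brightest was level at 1661 in Tmprss6-deficient liver and 1664 in control liver. Ntrk2, which encodes the neurotrophin receptor TrkB, had 50.5 in Tmprss6-deficient liver and 127 in control liver, 2.51-fold lower. A second Ntrk2 set was above the floor only in control liver, at least 1.83-fold lower, and its other 6 sets stayed below the floor in both livers. Nerve and glia markers summed to 124 in Tmprss6-deficient liver and 207 in control liver, with 4 of 7 reaching the floor in at least 1 liver and Snap25, Tubb3 and Mbp below it on both, and their part in the Ntrk2 difference was not tested.

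**Figure D3:**
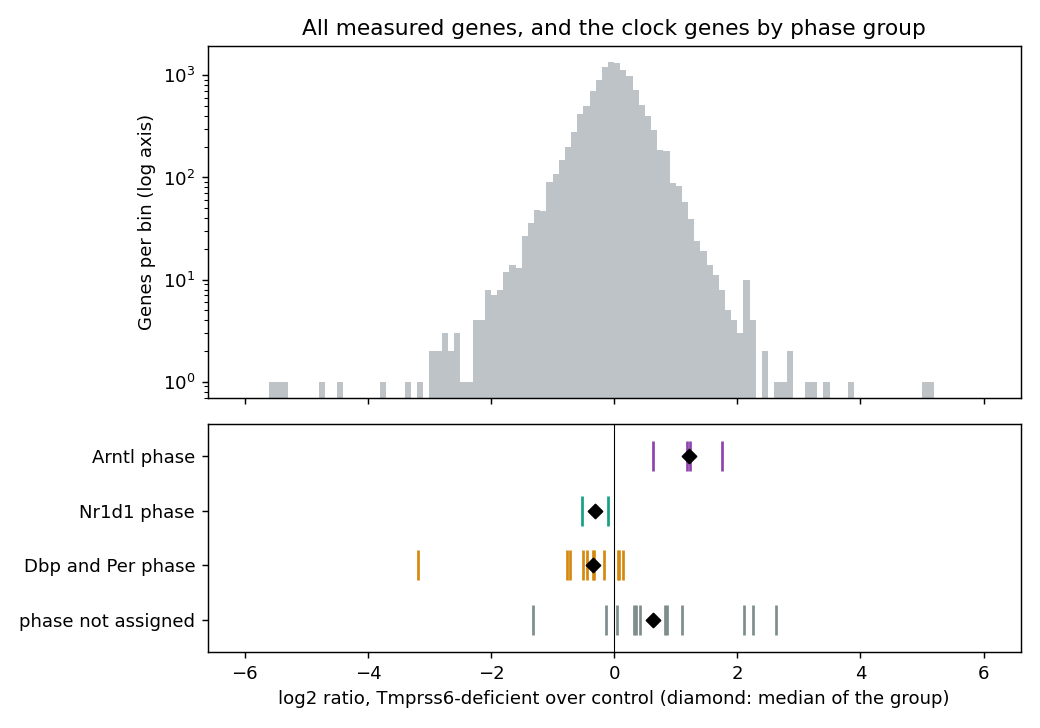
Upper panel, number of genes (log axis) by log2 ratio of Tmprss6-deficient over control liver for the 12248 measured genes. Lower panel, each measured clock gene as a tick by phase group, with the group median as a diamond at 1.21, -0.31, -0.34 and 0.63 from top to bottom. Ticks are from the brightest probe set of each gene, in groups chosen with earlier results known. On further probe sets the Arntl phase and the Dbp and Per phase overlap, with a Clock set at 0.30 and a Per2 set at 0.34.

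Set against the outputs of the loop, the log2 ratio of Arntl exceeded that of Dbp by 4.94, that of Nr1d2 by 2.27, that of Per1 by 2.26, that of Nr1d1 by 1.86 and that of Per2 by 1.61. The log2 ratio of Nfil3 exceeded that of Dbp, its antagonist at the D-box, by 4.37. No order of levels between probe sets is drawn from these differences. For 14 clock genes, at least 2 probe sets reached the floor in both livers, and 7 of these genes had all such sets in 1 direction, against 48.7% of 4367 such genes over the whole array.

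Other genes of the clock pathway were listed from textbook knowledge, with earlier results of these data known. Of 25 listed, 21 were named alone by a probe set and 19 were measured, with a median log2 ratio of -0.0057. At 1.5-fold, 0 were higher and 2 were lower, against 8.85% and 9.13% of all measured genes, so the lower count is near that share. Tipin, a replication fork gene whose product partners TIMELESS, was 1.65-fold lower. Gsk3b and Nono, a kinase gene and a gene for a PER-binding protein, had log2 ratios of 0.48 and -0.40, and the coactivator gene Ppargc1a had 0.37. The probe sets of Gsk3b and Ppargc1a did not all share a direction. Ciart, whose product CHRONO represses BMAL1 and CLOCK, had a signal of 15.5 in Tmprss6-deficient liver and 59.3 in control liver, at least 3.33-fold lower, and is named after its value was seen. Rorb and Timeless stayed below the floor in both livers.

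Targets of the clock's output factors, and the further lists after them, were also chosen with earlier results known. Their counts at 1.5-fold are over few genes and stand against the same 8.85% of all measured genes higher and 9.13% lower, and nothing particular to a list is read from them. For PAR bZIP factors 5 targets were measured. At 1.5-fold, 1 was higher and 2 were lower, and the median was -0.12. Cyp7a1, the first enzyme of bile acid synthesis, had 225 in Tmprss6-deficient liver and 1671 in control liver, and Nr1i3, which encodes the xenobiotic receptor CAR, had 807 in Tmprss6-deficient liver and 1365 in control liver. Cyp2b10, a P450 gene that CAR switches on, had 863 in Tmprss6-deficient liver and 122 in control liver, while Alas1, the first enzyme of heme synthesis, had a log2 ratio of 0.14. Of 8 measured targets of REV-ERB and ROR factors, 0 passed that fold on the higher side and 3 on the lower, and the median was -0.25. These were Cyp7b1 at 2.25-fold, the fatty acid elongase gene Elovl3 at 1.76-fold and G6pc (glucose-6-phosphatase) at 1.59-fold, and the sterol sensor gene Insig2 had a log2 ratio of 0.53.

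Of 14 measured transcripts known to cycle in mouse liver and not among the 30, 3 passed 1.5-fold on the higher side and 5 on the lower, and the median was -0.18. Noct, which encodes the rhythmic phosphatase nocturnin, had a signal of 126 in Tmprss6-deficient liver and 359 in control liver, 2.84-fold lower. The glycolysis regulator gene Pfkfb3 was 2.42-fold and the coenzyme Q gene Coq10b 2.18-fold lower, and the tubulin gene Tubb2a was 2.49-fold higher. Of 12 measured genes that glucocorticoids induce, 3 passed that fold on the higher side and 1 on the lower, and the median was -0.12. Mt2 and Cdkn1a were 4.58-fold and 4.35-fold higher, the chaperone gene Fkbp5 1.59-fold higher and the phosphatase gene Dusp1 1.95-fold lower. Of 9 measured genes that follow body temperature, 4 were at least 1.5-fold higher and 1 that much lower, and the median was 0.35. Hsph1, Hspa1a and Hspa1b, which encode heat-induced chaperones, the last 2 of them near-identical and not surely told apart by the probes, were 2.07-fold, 2.04-fold and 1.57-fold higher, and Cirbp, the cold-inducible RNA-binding protein gene, had 50.3 in Tmprss6-deficient liver and 97.1 in control liver, 1.93-fold lower.

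**Figure D4:**
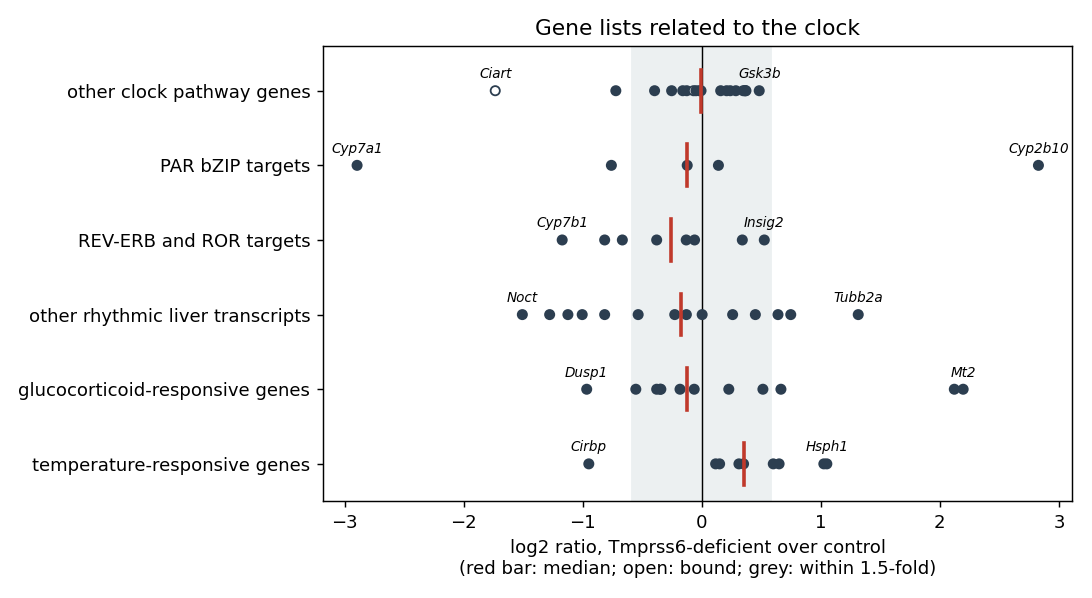
Log2 ratio of Tmprss6-deficient over control liver for the measured genes of 6 lists related to the clock, with the median as a red bar, bounds as open circles and 1.5-fold as the grey band. The lowest and highest gene of each list are named. List medians lie between -0.25 and 0.35.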

How the data were processed

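Liver RNA was measured on 2 Affymetrix mouse arrays, 1 per group, grouped by the titles in the labels. The authors deposited an intensity on a linear scale for each probe set. MAS5 is the tool in the submitters' processing notes, which give no version or settings. They ran from 0 to 42540.6, with trimmed means of 98.7 in Tmprss6-deficient liver and 98.9 in control liver. The platform annotation named 1 gene for 34945 of the 45037 probe sets that are not among the 64 controls, several for 932, which were left unnamed, and did not list 9160. Of these 45037 sets, 22773 sets reached the floor in Tmprss6-deficient liver and 22272 in control liver.

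Signals were scaled to a common mean without the lowest and highest 2%, set to the floor where below it, and log2 was taken (Python 3.11.15, pandas 2.3.3). Where 1 array alone reached the floor, the ratio is a bound, written "at least". Ratios are Tmprss6-deficient over control. Detection calls, saturation and, for probe sets shared by near-identical transcripts, the source of the signal were not assessed. The procedure was tested on simulated arrays in which only genes well above the floor were changed, alike on all their probe sets. That test does not cover dim genes or probe sets that disagree. Named genes were all 30 clock genes, Tmprss6, and up to 4 genes with the largest ratios among those that reached the floor in both livers in each of 6 related lists. Ciart and the marker and below-floor genes named lie outside this rule. The clock genes, phase groups and all lists were chosen with earlier results of these data known. Pck1 and Elovl3 stand in 2 of the related lists each. Alternatives were other scalings (median, none, quantile, loess), a pseudocount in place of the floor, a floor at percentile 30 or 70, and other choices of probe set and fold.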

Additional observations from a re-analysis of the deposited data

How the results depend on the processing

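Over the other scalings, floors and probe set choices, no clock gene past 1.5-fold changed its direction, and 257 of 270 values for single genes moved by less than the probe set spread. Part of these could not move, since a gene with 1 probe set keeps its ratio when probe sets are averaged. Genes without a qualifying probe set dropped out of a choice. Of 133 medians and counts, 125 stayed within that spread or within 1.5 times the count. With the second brightest probe set, only Clock remained of the Arntl phase, with a median of 0.30 and 0 genes higher by 1.5-fold, and 3 of 14 clock genes were higher by that fold. With plain probe sets only, which leave out the brightest Arntl set, the Arntl phase median was 0.81 over 3 genes. At 2-fold, 1 gene of the Dbp and Per phase and 2 of all clock genes were lower, and at the smallest fold tried, below 1.5, 7 and 9 were. Single genes that moved were Arntl (0.81 to 1.39), Cry1 (0.35 with the floor at the 70th percentile), Csnk1e (2.31 on its second set), Rora (0.10 on its second set), Hlf, Tef, Klf9 and Bhlhe41. The cause was not tested. No paired analysis was possible because each group holds 1 animal. Signals near the floor limit Per3, Bhlhe41, Npas2, Cry1, Csnk1e and Ciart.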
